A study of Mus musculus with 13 samples.

Results

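The hemisphere opposite an experimental stroke was compared with the cortex of mice that had only a sham operation. The comparison used 8 of the 13 libraries of the series, the 4 made from contralateral cortex (replicates 1, 2, 4 and 5) and the 4 made from sham cortex (replicates 1, 2, 3 and 5), chosen by their labels alone. All features were read in each: 3417 genes with an exonic Argonaute peak and 1705 mature miRNAs. Mice were wild-type C57BL6 aged 7 to 8 weeks. In the stroke group a filament blocked the right middle cerebral artery (middle cerebral artery occlusion, MCAO) for 35 min, and cortex was taken after 3 h of recovery. Sham mice had the same anesthesia and exposure of the arteries, with no filament. The contralateral samples are thus from mice that had an ischemic hemisphere, and no library of an unoperated mouse was used here. Replicate numbers mark separate days of surgery, and the labels do not say how many mice entered a library.

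Argonaute (AGO) proteins hold a miRNA and use it to find partly complementary messenger RNAs, which are then repressed. Pairing of miRNA bases 2 to 8, called the seed, with a site in the 3'UTR of the target is the main contact. In AGO CLIP, ultraviolet light crosslinks AGO to the RNA it touches, and the recovered fragments, called tags here, fall either on miRNAs or in peaks on target RNAs. A tag count rises with the level of an RNA and with how much AGO it holds, and AGO CLIP alone does not separate these. In cortex pieces, fewer cells of a type and less RNA per cell cannot be told apart either.

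The miRNAs below carry the values described later, most as abundant brain miRNAs or as some of those with the smallest p in each direction. The exception is let-7f-5p, printed as a let-7 member, which had only 169 tags in the 8 libraries. Capitals mark the seed, and sequences are 5′ to 3′ from RefSeq (GRCm38.p6).
miR-26a-5p: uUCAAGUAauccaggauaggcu
miR-26b-5p: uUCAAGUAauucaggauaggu
miR-30a-5p: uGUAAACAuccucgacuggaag
miR-29b-3p: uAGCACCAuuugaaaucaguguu
let-7f-5p: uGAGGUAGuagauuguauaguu
miR-7646-5p: aCAAGAGAacugaucagugcug
miR-7016-3p: aCCUGCCUccugcucuccccag
miR-1982-5p: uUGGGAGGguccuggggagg
miR-7239-5p: gCCAUCCUgacaaagcccuu
The 2 miR-26 miRNAs share 1 seed and the other 7 each have their own. In RefSeq the miR-26a-5p entry lies at chr9:119031811-119031832 (+), miR-26b-5p at chr1:74394324-74394344 (+) and miR-30a-5p at chr1:23272274-23272295 (+). miR-29b-3p is listed at chr1:195037091-195037113 (+) and let-7f-5p at chr13:48537889-48537910 (-). miR-7646-5p lies at chrX:135746716-135746737 (+), miR-7016-3p at chr4:129684500-129684521 (-), miR-1982-5p at chr10:80828808-80828827 (+) and miR-7239-5p at chr11:46170087-46170106 (+).

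On the target side, 4 stretches under 3'UTR peaks show what a site looks like, each with 7 bases complementary to a seed in capitals (mm10). Each is from the most tagged peak with such a match among those searched for its family, and the search left out part of the matched peaks.
Slc1a2, miR-26a-5p: aaggccacgtgggTACTTGAaca
Purg, miR-29b-3p: ctgTGGTGCTaat
Calm3, miR-5101: tttttttttttaaaCAAACAAaca
Map1b, miR-7231-3p: caccccggttaactGAAGCAAata
The Slc1a2 stretch lies at chr2:102783713-102783735 (+) and its peak had 21 tags in the sham and 14 in the contralateral libraries. The Purg stretch lies at chr8:33417286-33417298 (+), with 26 and 23 tags, and the Map1b stretch at chr13:99424898-99424921 (-), with 36 and 42. The Calm3 stretch, at chr7:16915458-16915481 (-), sits in a peak with 141 sham and 62 contralateral tags. A match is a description of the letters under a peak, and these single peaks were not tested.

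Depth differed widely between libraries. Peak tags ranged from 17918 to 71027 in sham and from 7950 to 65781 in contralateral libraries, and miRNA tags from 24906 to 55912 and from 13117 to 61708. Exonic peaks (3'UTR, coding sequence, 5'UTR and other exons) held 37.0% of peak tags in sham replicate 1, 44.1% in contralateral replicate 1 and 49.3% in sham replicate 3, against 63.3% to 77.2% in the other 5 libraries. Both libraries of replicate 1 were thus rich in intronic and intergenic tags, at 40.3% and 36.4% intronic. Over the groups, intronic peaks took 28.5% ± 9.53 (SD, n = 4) of sham and 23.3% ± 9.60 (SD, n = 4) of contralateral peak tags. The 3'UTR share was 36.3% ± 8.72 in sham and 43.1% ± 11.4 in contralateral libraries. For the 8 region classes, the exact permutation test (two-sided, Benjamini-Hochberg adjusted) gave adjusted p between 0.610 and 0.800. The smallest raw p that 4 against 4 can give in this test is 0.0286, so 1 region alone could not pass after adjustment over 8. Since the exonic share differed between libraries, gene shares below are of exonic tags, and miRNA shares of miRNA tags.

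Among genes, no difference between contralateral and sham cortex passed the test. The edgeR quasi-likelihood fit over all 13 libraries, with Benjamini-Hochberg adjustment, tested 444 genes that held 64.1% of exonic tags and called 0 (0%), the smallest adjusted p being 0.714. At an unadjusted p under 0.05 it left 9 genes (2.03%), 7 higher and 2 lower, and with the day of surgery as a replicate block it called 0 and left 18. DESeq2 also called 0, with 6 at an unadjusted p under 0.05. A missed threshold does not show that the hemispheres were alike, and 95% intervals are given with the differences of the main genes and miRNAs. The 95% interval of the difference lay within 2-fold either way for 161 of the 444 genes (36.3%). It did so for 98 of the 148 best covered genes (152 to 3614 tags in the 8 libraries), 50 of 148 in the middle and 13 of the 148 least covered (6 to 92 tags). The remaining genes with exonic tags had too few for the test.

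**Figure D1:**
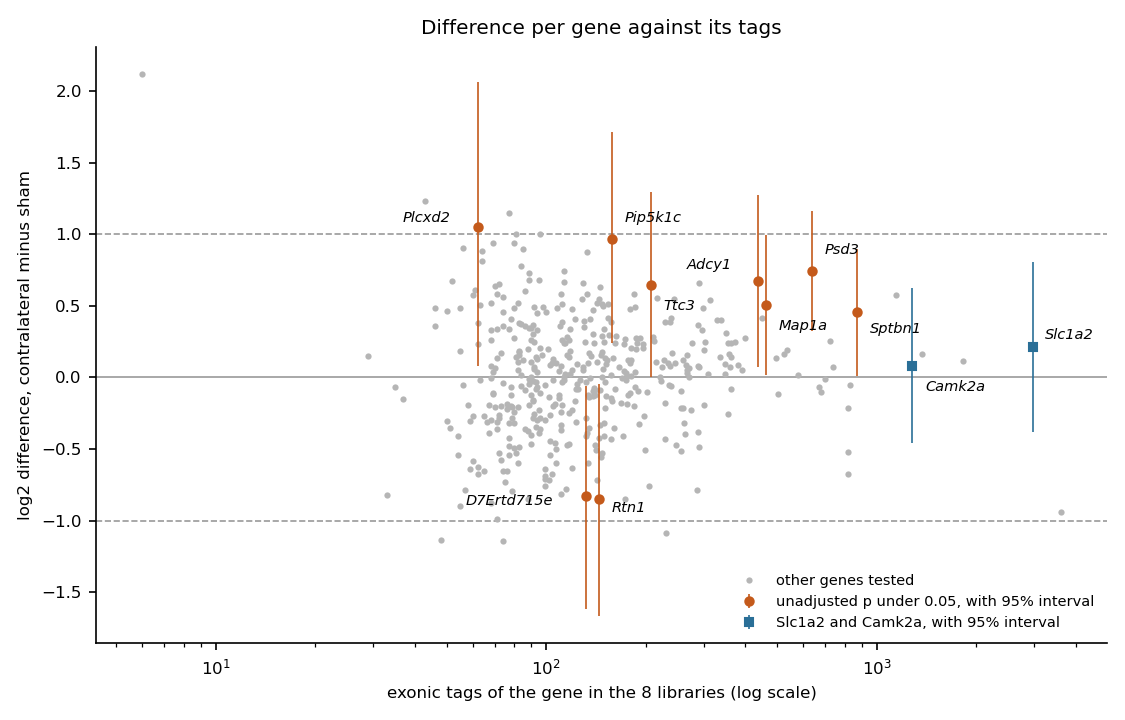
Each point is 1 of the 444 genes tested, its tags in the 8 libraries on a log axis and its log2 difference (contralateral minus sham) on the vertical axis. Bars are 95% intervals for the 9 genes at an unadjusted p under 0.05 and for Slc1a2 and Camk2a, and dashed lines mark 2-fold, past which 7 genes lie.

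The gene with the smallest p was Psd3, which encodes an exchange factor for the small GTPase ARF6, a regulator of membrane traffic at synapses. Its tags per 10000 exonic tags were 38.0, 31.1, 38.5 and 43.5 in sham replicates 1, 2, 3 and 5. In contralateral replicates 1, 2, 4 and 5 they were 56.5, 68.2, 62.3 and 68.1, so that every contralateral library lay above every sham library. The fitted log2 difference was 0.74 (SE 0.20, 95% interval 0.33 to 1.16), with an edgeR adjusted p of 0.714. The tags were spread over 57 exonic peaks, 46 in the 3'UTR and 11 in coding sequence, the largest holding 6.13% of them.

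The next genes on the higher side are named by rank alone, and all had an edgeR adjusted p of 0.998. Pip5k1c, a kinase that makes the lipid PI(4,5)P2 at synapses, had 9.88, 7.94, 10.2 and 5.25 tags per 10000 in sham and 16.9, 20.6, 15.2 and 10.98 in contralateral libraries. The groups did not overlap, and the log2 difference was 0.97 (95% interval 0.24 to 1.71). Adcy1, the calcium- and calmodulin-stimulated adenylyl cyclase of neurons, had 23.9, 28.5, 23.8 and 29.9 in sham and 40.6, 43.2, 38.8 and 46.1 in contralateral libraries. Here too the ranges were separate, with a log2 difference of 0.67 (0.08 to 1.27). Plcxd2, a phospholipase of the phosphoinositide type, had only 62 tags in the 8 libraries and means of 3.23 ± 0.736 and 6.59 ± 2.10 (SD, n = 4 each; log2 difference 1.05, 0.08 to 2.06).

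Further down the same ranking, Map1a, a microtubule protein of mature neurons, averaged 28.6 ± 5.78 tags per 10000 in sham and 40.9 ± 5.65 in contralateral libraries (log2 difference 0.51, 0.02 to 1.00). Sptbn1, the beta-II spectrin under the membrane of axons, averaged 59.0 ± 5.35 and 81.3 ± 18.4 (0.45, 0.01 to 0.89). The groups of both genes were separate, and for Sptbn1 contralateral replicate 5 lay at 108.7 against 70.6 to 75.1 in the other 3. Ttc3, a ubiquitin ligase, and Arhgef12, an exchange factor for RhoA, had log2 differences of 0.64 (0.00 to 1.29) and 1.00 (0.01 to 2.01), with overlapping groups. For Arhgef12 contralateral replicate 5 (22.0) was again the highest, against 6.20 to 10.0 in the others, and without it the difference was 0.53. Without it the Sptbn1 difference was 0.28, and that of Map1a was 0.33 without sham replicate 2 and 0.34 without contralateral replicate 1.

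On the lower side the smallest p belonged to D7Ertd715e, a non-coding transcript with 16 exonic peaks. It had 9.12, 16.5, 15.9 and 13.1 tags per 10000 in sham and 7.23, 6.88, 6.74 and 8.79 in contralateral libraries, again without overlap (log2 difference -0.83, 95% interval -1.62 to -0.06). Rtn1, a reticulon of the neuronal endoplasmic reticulum, averaged 14.5 ± 2.61 and 7.90 ± 2.99 (-0.85, -1.67 to -0.05). Eif4g2, a translation initiation factor, averaged 24.2 ± 2.76 and 17.5 ± 4.34, with every contralateral library below every sham library (-0.51, -1.05 to 0.02).

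Calm3, which encodes the calcium sensor calmodulin, had 30.4, 24.5, 32.8 and 22.5 tags per 10000 in sham and 14.1, 25.02, 16.9 and 6.59 in contralateral libraries. Replicate 2 reached into the sham range (-0.79, -1.62 to 0.04). Its tags came mainly from 1 peak, the one printed above with a miR-5101 match, which held 71.0% of them. March6 (given in the table under a date-like symbol), a ubiquitin ligase of the endoplasmic reticulum, had -0.79 (-1.66 to 0.06) and Ppap2b, a lipid phosphatase, -0.81 (-1.73 to 0.08, and -0.51 without sham replicate 2). Clip3, a linker of membranes and microtubules, had -0.99, with an interval from -2.11 to 0.11. The filter on low counts used all 13 libraries, and with the 8 alone it kept 360 genes. Plcxd2, March6, Clip3 and Nr4a1 (described below) were not among those.

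**Figure D2:**
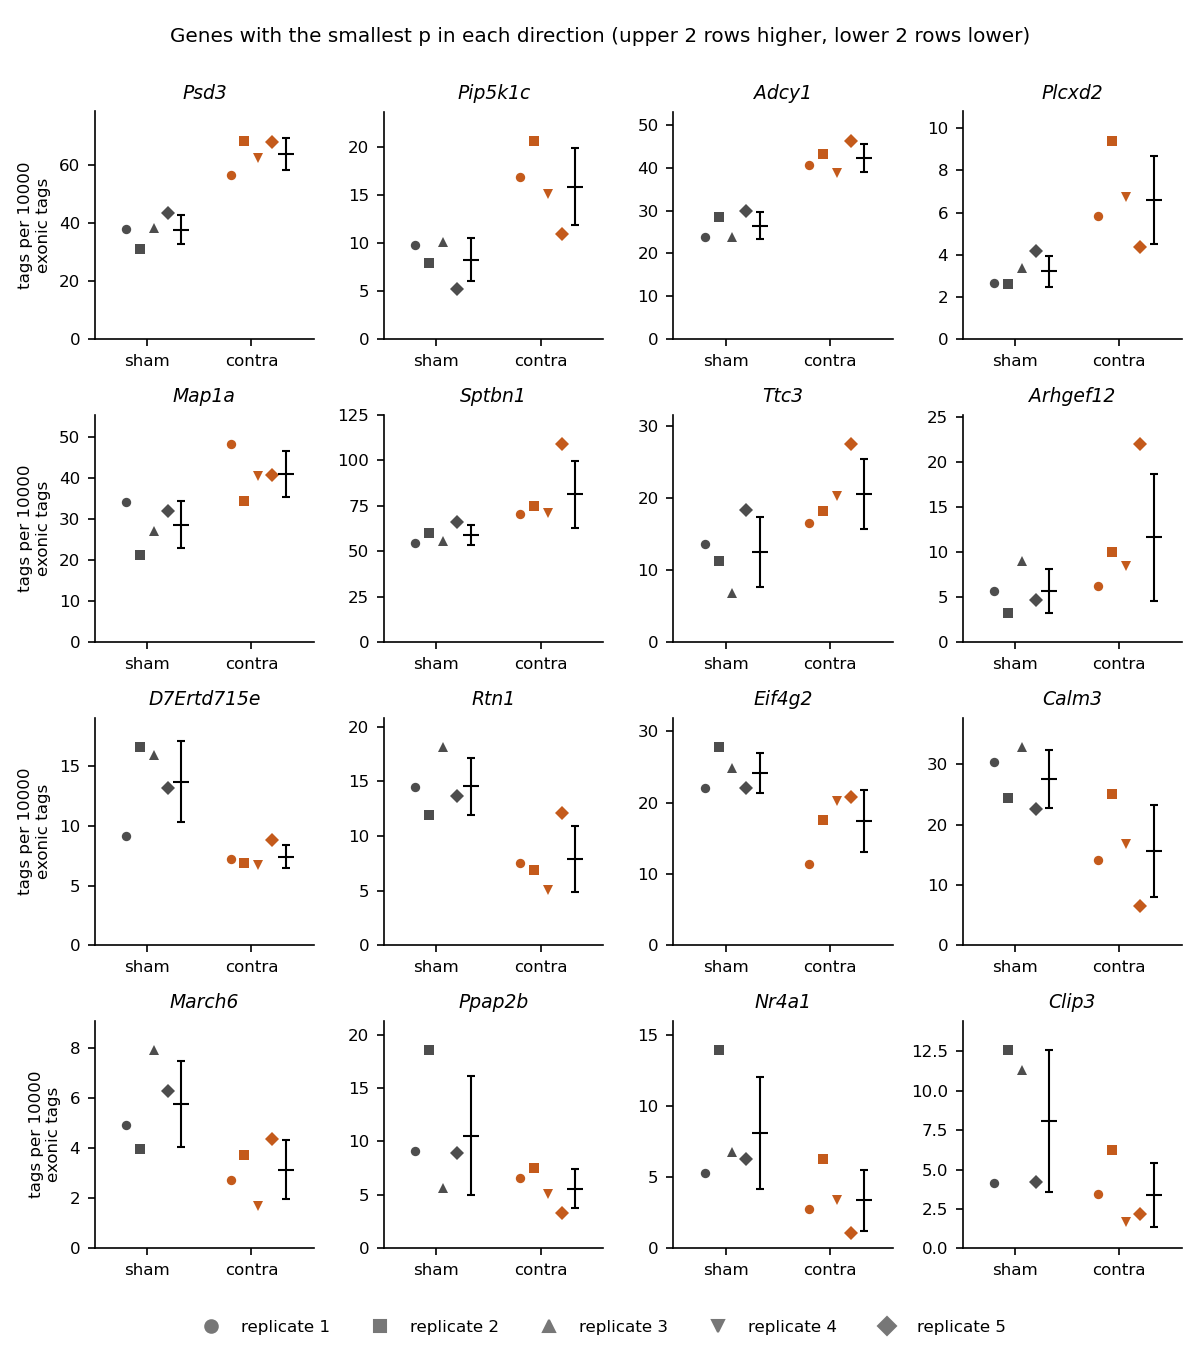
Tags per 10000 exonic tags of the 8 genes with the smallest p in each direction, 1 panel per gene, with marker shape for the replicate number and black bars for mean ± SD (n = 4). Psd3, Pip5k1c, Adcy1, Plcxd2, Map1a, Sptbn1, D7Ertd715e and Eif4g2 have groups that do not overlap, and the other 8 overlap.

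Counting all 444 genes, 8 had every contralateral library above every sham library (1.80%) and 3 had every one below (0.676%). Besides the genes named above these were Tsc22d1 and Nf1 on the higher side and Srrm2 on the lower, chosen here after their values were seen. Each of these 11 has the smallest exact permutation p that 4 against 4 allows, 0.0286. By chance alone a share of about 0.0286 of genes would separate in this way, and 11 of 444 is near that share.

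Slc1a2, the astrocytic glutamate transporter GLT-1, was the second most tagged gene. Its tags per 10000 exonic tags were 195.3, 231.6, 202.6 and 247.6 in sham and 211.1, 241.5, 203.8 and 364.6 in contralateral libraries. Contralateral replicates 1, 2 and 4 lay within the sham range, and replicate 5 lay above it. The log2 difference was 0.21 (95% interval -0.38 to 0.80), and without contralateral replicate 5 it was -0.02. Of its 76 exonic peaks 66 were in the 3'UTR. Camk2a, the kinase of glutamatergic synapses and itself locally translated in dendrites, averaged 94.4 ± 7.78 and 99.6 ± 15.6 tags per 10000 (0.08, -0.46 to 0.62).

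Other highly tagged RNAs had intervals that include 0. Map2, a dendritic microtubule protein, averaged 98.9 ± 21.5 and 109.8 ± 10.0 (0.16, -0.34 to 0.66). The nuclear non-coding RNA Malat1 averaged 133.0 ± 12.5 and 143.9 ± 41.4 (0.11, -0.61 to 0.84). Meg3, another non-coding RNA, had 106.0, 66.2, 35.1 and 45.1 in sham and 114.0, 115.7, 15.2 and 134.0 in contralateral libraries, where replicate 4 alone was far below the rest (0.57, -0.43 to 1.57). Without 1 library the Meg3 difference ran from 0.35 to 1.01.

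Zcchc4 had the most exonic tags of any gene, 3614, all in a single 3'UTR peak. The values were 722, 27.8, 230 and 12.1 per 10000 in sham and 487, 16.9, 5.05 and 1.10 in contralateral libraries. It was highest in sham replicate 1, contralateral replicate 1 and sham replicate 3, the 3 libraries with the smallest exonic share. The log2 difference of -0.94 had an interval from -4.37 to 2.50. Whether library composition had a part in this value was not tested.

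Genes that respond to ischemia were looked at next. Hspa1b, a heat shock protein induced in injured tissue, had 1 tag in the 4 sham libraries and 5 in the contralateral ones, 4 of these in replicate 2 and 1 in replicate 4. The ratio of pooled rates was 5.77 with an exact 95% interval of 0.646 to 273, which covers counting error only. In the 5 ipsilateral libraries Hspa1b had 127 tags. Hspa1a had 0 tags in sham, where a count of 0 allows up to 0.433 per 10000, and 1 in contralateral libraries, against 33 in ipsilateral ones. A difference between contralateral and sham cortex in either RNA was not detectable at this depth.

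Immediate early genes, which neurons switch on within minutes of activity, had 14 of 33 list members with tags. Of the 4 that were tested, 0 passed, and 3 had estimates below 0 (median log2 difference -0.51, against 0.03 over all 444 genes). Nr4a1, an orphan nuclear receptor of this group, had 5.32, 13.9, 6.79 and 6.29 tags per 10000 in sham and 2.76, 6.26, 3.37 and 1.10 in contralateral libraries. Its difference was -1.14 (-2.43 to 0.12), and 63.5% of its tags were in 1 peak. Klf10 ranged from 3.31 to 21.7 in sham and from 0 to 19.4 in contralateral libraries, and Homer1 averaged 9.70 ± 2.08 and 10.7 ± 0.961. Summed over the list, the share of exonic tags was 0.612%, 0.503%, 0.442% and 0.661% in sham and 0.455%, 0.563%, 0.371% and 0.253% in contralateral libraries, so the groups overlapped. With no filter on low counts, 15 members with a tag in any of the 13 libraries were fitted. Of these 13 lay below 0 and 1 above (median -0.44, against -0.12 over all genes in that fit). By pooled share of exonic tags, 11 of the 14 members tagged in the 8 libraries were lower in contralateral cortex. Most of these had too few tags for the main test. With the replicate block 2 of the 4 tested lay below 0, with a median of -0.53. The fit to the 8 libraries alone kept only 2 members, with a median of -0.06. The median moved widely with single libraries, to -0.15 without sham replicate 1, -0.82 without sham replicate 2, -1.16 without contralateral replicate 4 and -0.91 without contralateral replicate 5, and to -0.18 without both libraries of replicate 1.

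Stress lists gave little that could be tested. Of 29 chaperones and other genes of protein folding stress, 14 had tags and 4 were tested. Hspa1b was among them through its ipsilateral tags, and of the other 3 tested 2 had estimates above 0. The summed share of the whole list was 0.259% ± 0.0751 in sham and 0.312% ± 0.108 in contralateral libraries. The chaperone genes Hsp90ab1 (5.54 ± 3.05 and 5.60 ± 2.36 per 10000), Hsph1 (5.27 ± 2.49 and 5.96 ± 2.06) and Canx (4.99 ± 2.13 and 6.12 ± 2.92) had overlapping groups. Ddit4, an inhibitor of mTORC1 that answers to hypoxia and to glucocorticoids, was the only tested member of the hypoxia list, at 5.43 ± 1.93 and 4.11 ± 1.31, and that list summed to 0.227% ± 0.0473 and 0.205% ± 0.0143. The glucocorticoid list, meant for a systemic stress response, summed to 0.396% ± 0.0402 and 0.325% ± 0.0451. Its other tested members were Klf9, at 15.0 ± 2.70 and 13.9 ± 1.52, and Zbtb16, at 5.89 ± 1.03 and 6.501 ± 4.36.

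Glutamate genes came next, since the series is titled for glutamate homeostasis. For transport and metabolism, 13 of 19 members had tags and 4 were tested, 2 on either side of 0 (median 0.02). The summed share was 2.88% ± 0.314 in sham and 3.31% ± 0.698 in contralateral libraries, mostly Slc1a2. Glul, the glutamine synthetase of astrocytes, averaged 30.2 ± 2.75 and 41.0 ± 8.25 tags per 10000 (0.42, -0.05 to 0.89), and Slc17a7, the vesicular glutamate transporter VGLUT1, 9.78 ± 5.37 and 8.86 ± 4.49. Among receptors and scaffolds 24 of 39 had tags and 6 of the 9 tested lay above 0 (median 0.10). Gria2, an AMPA receptor subunit, had 20.1, 19.9, 21.5 and 23.6 in sham and 18.6, 31.3, 27.0 and 50.5 in contralateral libraries, where replicate 5 was the highest and replicate 1 the lowest of all 8 (0.54, -0.03 to 1.11, and 0.23 without contralateral replicate 5). The receptor list summed to 1.59%, 1.87%, 1.65% and 1.89% in sham and 1.84%, 1.96%, 1.99% and 2.12% in contralateral libraries, where only contralateral replicate 1 lay within the sham range.

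In GABA signalling 4 of 6 tested members lay below 0 (median -0.10), and the summed shares were 0.825% ± 0.132 and 0.787% ± 0.143. Gabrb2, a subunit of the GABA-A receptor, averaged 17.5 ± 8.24 tags per 10000 in sham and 19.8 ± 4.93 in contralateral libraries. Genes of synaptic vesicle release were the best covered list, with 27 of 28 members tagged and 15 tested, 8 above and 7 below 0 (median 0.02, range -0.49 to 0.39). Their summed share was 2.32% ± 0.352 in sham and 2.31% ± 0.158 in contralateral libraries. The calcium sensor Syt1 averaged 53.8 ± 10.0 and 51.7 ± 7.91, and the SNARE gene Snap25 26.1 ± 5.66 and 30.6 ± 11.7.

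Remodelling of axons and dendrites in the intact hemisphere was asked of a list of 35 growth and plasticity genes, 22 of them tagged and 12 tested. Of these 6 lay above and 6 below 0 (median -0.04), and the list took 3.86% ± 0.389 of sham and 3.97% ± 0.0698 of contralateral exonic tags. Map1b, a microtubule protein of growing axons, averaged 70.5 ± 14.02 and 60.6 ± 6.35. For the miRNA pathway, 13 of 26 genes were tagged and 4 of 6 tested lay above 0 (median 0.06). The silencing scaffold Tnrc6b averaged 21.2 ± 2.55 and 22.3 ± 7.74, and the RNA-binding repressor Pum2 19.0 ± 7.66 and 27.1 ± 4.71.

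The cell types behind the tags were read from markers. Neuron markers (17 of 21 tagged) took 4.00% ± 0.377 of sham and 4.45% ± 0.646 of contralateral exonic tags, and 6 of 11 tested lay above 0. Astrocyte markers (14 of 19 tagged) took 3.41% ± 0.303 and 3.96% ± 0.655, with contralateral replicate 5 at 4.94% and the other 3 between 3.58% and 3.67%. All 6 tested astrocyte genes had estimates above 0 in the fit (median 0.18, range 0.05 to 0.42), while 238 of all 444 genes did. These 6 are the members that passed the filter on low counts, and with no filter 8 of all 14 tagged members lay above and 6 below 0 (median 0.03, range -0.97 to 1.75). Without contralateral replicate 5, or without sham replicate 3, 4 of the 6 did, and with the replicate block 5 of 6. Slc1a2 and Glul make up much of this list and are also members of the glutamate list. Oligodendrocyte markers summed to 0.614% ± 0.0903 and 0.625% ± 0.105, Mbp alone having 25.4 ± 5.01 and 21.5 ± 3.79 per 10000.

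Other cells left almost no tags. Of 17 microglia and myeloid markers 1 had tags, 7 in sham and 7 in contralateral libraries, and Cx3cr1, P2ry12, Aif1 and Tyrobp had 0. Of 14 blood markers 1 had tags (9 and 10), of 21 vascular markers 3 (25 and 32), of 24 inflammatory genes 1 (4 and 14) and of 20 apoptosis regulators 4 (25 and 27). Markers of striatum and hippocampus, regions that a cortical dissection could include, had 26 tags in sham and 22 in contralateral libraries. No member of these 6 lists passed the filter on low counts, and the astrocyte gene Gfap and the neuronal gene Rbfox3 also had 0 tags.

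**Figure D3:**
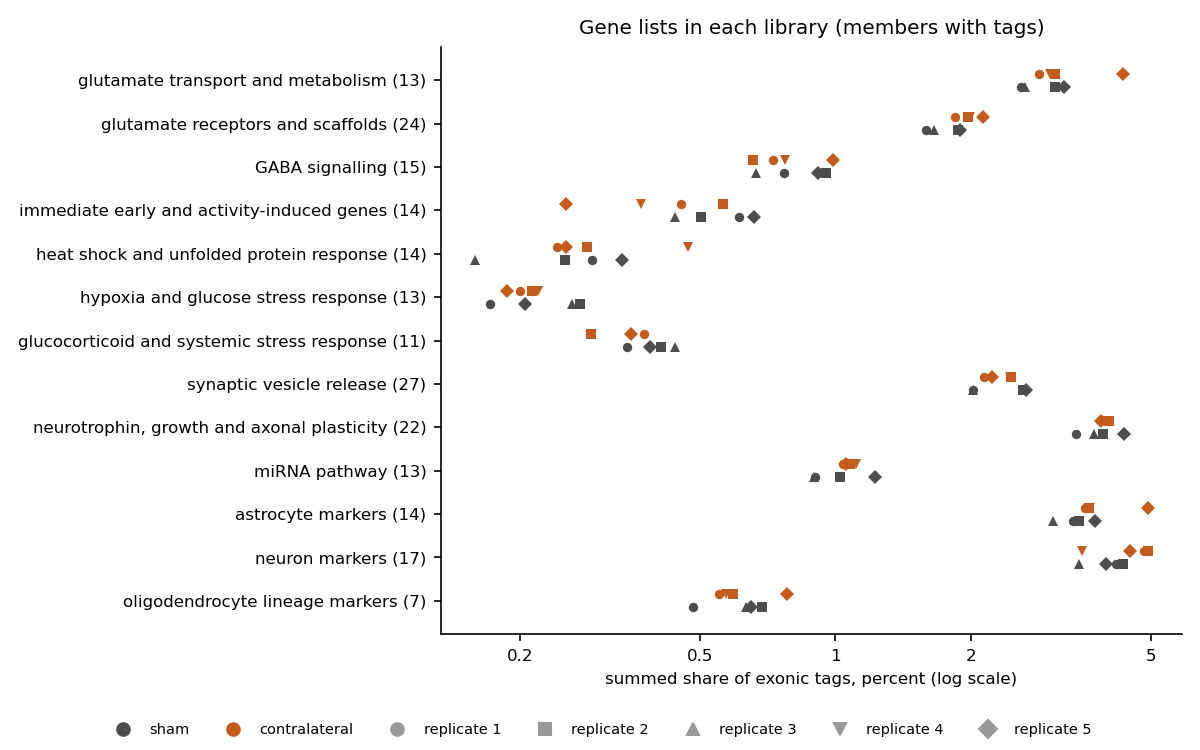
Summed share of exonic tags (percent, log axis) of the 13 gene lists with a tested member, 1 marker per library, grey for sham and orange for contralateral, with the number of members that had tags in parentheses. In all 13 lists the 2 groups overlap, and contralateral replicate 5 stands at an end for astrocyte markers (4.94%) and immediate early genes (0.253%).

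Among miRNAs, too, no difference passed the test. The same edgeR test kept 1427 miRNAs (94.9% of miRNA tags) and called 0 (0%). At an unadjusted p under 0.05 there were 43 (3.01%), 24 higher and 19 lower, and DESeq2 called 0 with 20 at that level. For 1111 miRNAs (77.9%) the 95% interval lay within 2-fold either way, and the estimates ran from -0.91 to 0.98 on the log2 scale with a median of 0.00. Among the 10 most tagged miRNAs only the interval of miR-1187 did so (-0.90 to 0.77). Those of miR-26a-5p and miR-494-3p, for example, ran from -1.42 to 0.93 and from -0.99 to 1.28. Every contralateral library lay above every sham library for 9 miRNAs (0.631%) and below for 13 (0.911%). Chance alone would separate a share of about 0.0286, so these 22 of 1427 are no more than chance gives. Most miRNAs of the table were thinly tagged: the median miRNA had 116 tags in the 8 libraries, the middle 50% lay between 78 and 169, and 99 miRNAs reached 3 times the median share. Of the 43 at an unadjusted p under 0.05, 2 reached that level, miR-26b-5p and miR-30a-5p.

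The higher miRNA with the smallest p was miR-7646-5p, with 3.04, 3.77, 4.42 and 1.34 tags per 10000 miRNA tags in sham and 5.19, 6.49, 7.62 and 6.83 in contralateral libraries. That is 47 against 76 tags (log2 difference 0.98, 95% interval 0.40 to 1.57, edgeR adjusted p = 1). miR-7016-3p followed, averaging 3.47 ± 0.970 and 6.20 ± 0.928 (0.88, 0.33 to 1.44). For miR-6999-5p, miR-8103, miR-344-3p and miR-196a-1-3p the differences were 0.65 (0.14 to 1.17), 0.63 (0.14 to 1.12), 0.92 (0.17 to 1.69) and 0.98 (0.18 to 1.82), with overlapping groups. Without contralateral replicate 1 the first was 0.28 and the second 0.33, and without contralateral replicate 2 the last was 0.62.

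On the lower side miR-1982-5p averaged 6.14 ± 2.15 tags per 10000 in sham and 2.73 ± 1.34 in contralateral libraries (-0.89, -1.53 to -0.27). The groups of miR-7239-5p did not overlap, with 3.04, 5.28, 4.02 and 4.68 in sham and 2.76, 2.16, 1.52 and 2.05 in contralateral libraries (-0.78, -1.50 to -0.09). miR-3104-3p, miR-6417, miR-1936 and miR-758-5p had -0.78 (-1.44 to -0.14), -0.90 (-1.67 to -0.15), -0.64 (-1.21 to -0.07) and -0.75 (-1.44 to -0.08). Without contralateral replicate 1 that of miR-6417 was -0.60. All 12 are rare miRNAs, with 79 to 239 tags in the 8 libraries.

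Abundant brain miRNAs varied more between libraries than between groups. miR-26a-5p, whose seed is printed above, had 133.8, 168.6, 79.9 and 108.6 tags per 10000 in sham and 140.8, 83.8, 158.6 and 28.0 in contralateral libraries. The lowest was contralateral replicate 5, and the difference was -0.25 (-1.42 to 0.93). The neuronal miR-124-3p ranked the 4 contralateral libraries in the same order, at 143.3, 77.8, 154.0 and 31.4, against 99.2 to 161.9 in sham (-0.21, -1.31 to 0.90). miR-466i-5p, the most tagged of all, averaged 124.5 ± 40.6 and 114.8 ± 43.5 (-0.12, -1.21 to 0.98). Next in tags, miR-7058-3p had 181.9 in sham replicate 1 and 166.8 in contralateral replicate 1, against 42.2 to 113.4 in the other libraries.

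Within seed-sharing families single libraries stood out. miR-26b-5p, which shares the miR-26a-5p seed, had 10.5, 73.5, 12.96 and 9.57 tags per 10000 in contralateral libraries against 11.4 to 17.6 in sham. Its difference of 0.94 (0.08 to 1.81) rests on contralateral replicate 2, without which it was -0.35. miR-30a-5p had 10.4, 34.2, 48.2 and 16.04 in sham and 14.1, 16.8, 21.4 and 3.42 in contralateral libraries (-0.90, -1.71 to -0.08). Without sham replicate 3 the difference was -0.50. The 6 tested miR-30 miRNAs had a median of -0.13, with 4 below 0. let-7f-5p averaged 7.12 ± 2.32 and 5.02 ± 1.93 (-0.67, -1.28 to -0.07, and -0.44 without contralateral replicate 2), and of the 6 tested let-7 and miR-98 members 4 lay below 0 (median -0.41). let-7d-5p, of the same family, had 7.39 ± 2.27 and 11.2 ± 9.23, and the groups of both miRNAs overlapped.

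**Figure D4:**
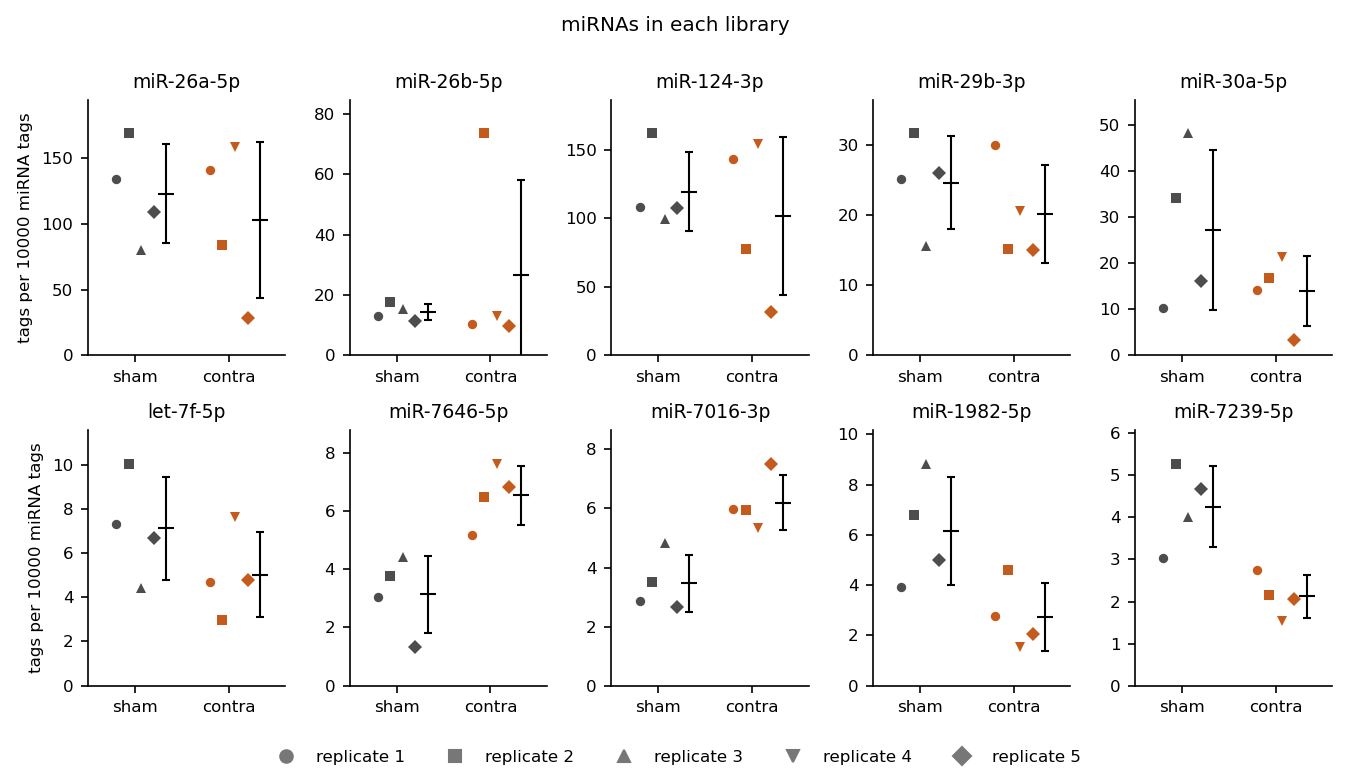
Tags per 10000 miRNA tags of 10 miRNAs in each library, with marker shape for the replicate number and black bars for mean ± SD (n = 4, the lower arm for miR-26b-5p ending at the axis). For miR-26b-5p only contralateral replicate 2 (73.5) leaves the range of the other libraries, and for miR-26a-5p and miR-124-3p contralateral replicate 5 is the lowest.

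For the miR-29 family, 5 of 7 tested members lay below 0 (median -0.20), and miR-29b-3p averaged 24.6 ± 6.64 and 20.2 ± 7.03 tags per 10000 (-0.25, -0.96 to 0.47, and -0.62 to -0.10 with 1 library left out). The activity-induced miR-132-3p averaged 7.28 ± 2.79 and 8.06 ± 2.45, and miR-34a-5p, a target of p53, 3.25 ± 0.744 and 4.04 ± 0.707. Of 15 neuron-enriched miRNAs tested 10 lay above 0 (median 0.03). Their summed share was 2.58% ± 0.371 of sham and 2.43% ± 0.605 of contralateral miRNA tags. miR-155-5p, miR-223-3p and the other hypoxia and inflammation miRNAs summed to 0.415% ± 0.0297 and 0.439% ± 0.0675, with 6 of 8 tested above 0. Blood and vascular miRNAs took 0.811% ± 0.319 and 0.710% ± 0.170, mainly miR-16-5p, at 47.1 ± 32.5 and 37.7 ± 19.6 per 10000. The miR-181 family summed to 0.187% ± 0.0521 and 0.148% ± 0.0360, the miR-125 group to 0.121% ± 0.0294 and 0.128% ± 0.0633, glial miRNAs to 0.267% ± 0.0358 and 0.273% ± 0.132, and miRNAs of liver and muscle to 0.246% ± 0.0167 and 0.277% ± 0.0605. In the 12 miRNA lists 0 members passed the adjusted test, and no summed share separated the groups.

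Occupancy of target sites was then read by seed family. Tags in 3'UTR peaks were summed over peaks with a match to the seed, or to bases 2 to 7 followed by A, for the 40 families with the most miRNA tags among miRNAs that have a sequence in the RefSeq table used. miR-466i-5p and miR-124-3p were not matched there, so they belong to none of the 40 and their sites were not analysed here. miR-30d-5p was not matched either, so its tags counted for no family, and the miR-30 sites read below are those of the miR-30a-5p seed. edgeR called 0 of the 40 (0%) and left 0 at an unadjusted p under 0.05 (0%), as did DESeq2. These sums were the most precise values here, since 39 of 40 intervals (97.5%) lay within 2-fold. A peak can hold sites of several families, so the 40 are not independent.

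The families with the smallest p had these shares. Peaks with sites of the miR-7231-3p family, such as the Map1b stretch printed above, took 1.88%, 1.83%, 1.89% and 1.96% of 3'UTR tags in sham and 2.02%, 2.22%, 2.10% and 2.14% in contralateral libraries. The groups did not overlap, and the difference was 0.16 (-0.07 to 0.40). Sites of miR-6896-3p took 2.34% ± 0.260 and 2.67% ± 0.230 (0.19, -0.07 to 0.45), and those of miR-5101 4.82% ± 0.474 and 5.59% ± 0.695 (0.21, -0.12 to 0.54). Below 0 were miR-1192 at 2.69% ± 0.262 and 2.32% ± 0.264 (-0.20, -0.45 to 0.05), miR-294-3p at 0.878% ± 0.116 and 0.720% ± 0.0612 (-0.26, -0.64 to 0.12) and miR-16-5p at 1.24% ± 0.229 and 1.07% ± 0.180 (-0.19, -0.53 to 0.14).

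Families of abundant brain miRNAs held nearly the same share in both groups. Sites of miR-29b-3p took 2.15% ± 0.168 of sham and 2.19% ± 0.221 of contralateral 3'UTR tags, with an interval for the log2 difference from -0.22 to 0.23. For miR-26a-5p the shares were 2.77% ± 0.245 and 2.65% ± 0.397 (-0.29 to 0.19), for let-7d-5p 1.49% ± 0.330 and 1.48% ± 0.294 (-0.32 to 0.36), and for miR-30a-5p 2.12% ± 0.375 and 2.09% ± 0.232 (-0.29 to 0.23). For these 4 families a 2-fold difference in either direction lies outside the interval. With all peak tags in place of 3'UTR tags as library size, the median of the 40 families moved from 0.03 to 0.29, since 3'UTR peaks took more of the contralateral tags, and no family passed.

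**Figure D5:**
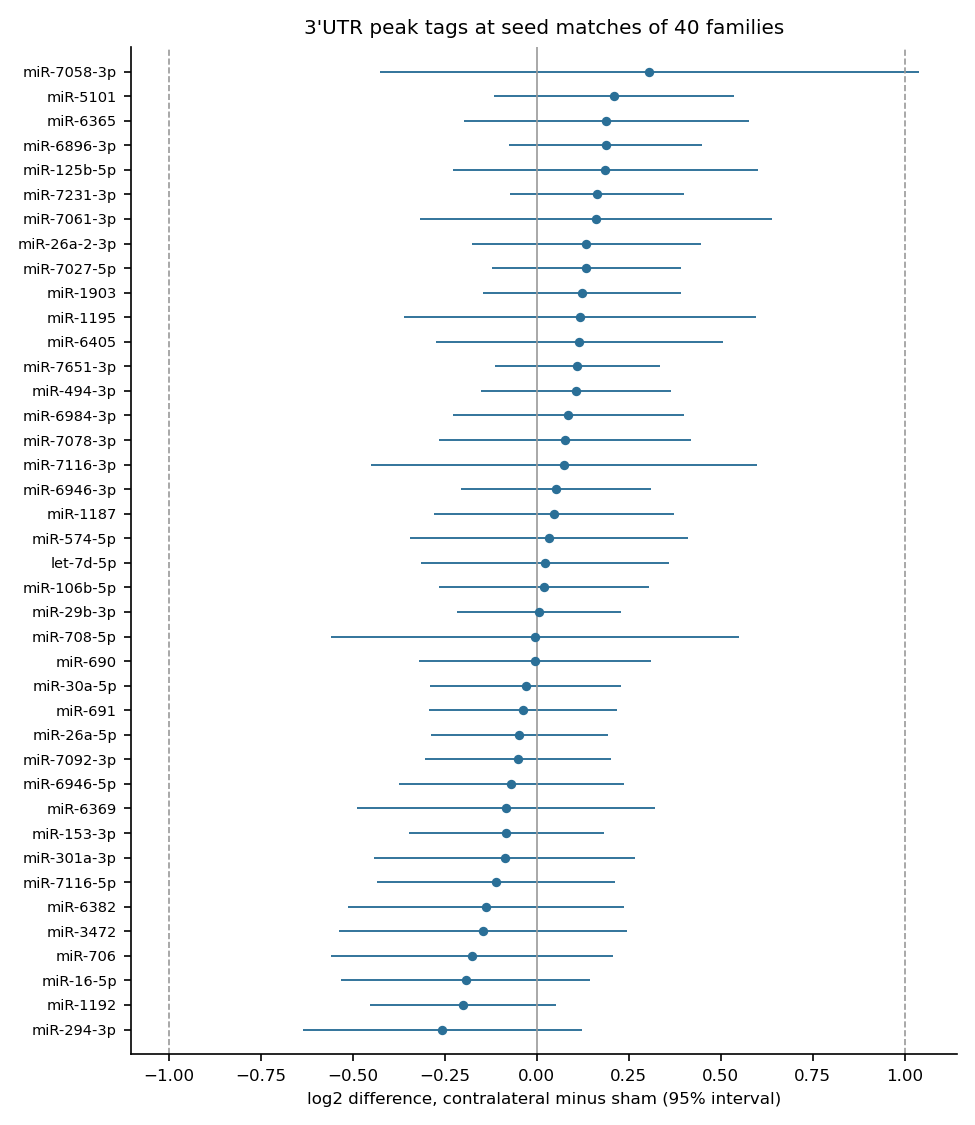
Log2 difference (contralateral minus sham) with its 95% interval for the summed 3'UTR peak tags of 40 seed families, each named by its most tagged member with a RefSeq sequence, with dashed lines at 2-fold. All 40 intervals include 0, and only that of miR-7058-3p reaches past 2-fold.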

How the data were processed

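The authors deposited 2 tables of counts, whole numbers of tags per AGO peak and per mature miRNA, not normalized. Per the submitters' processing notes, reads were aligned to mm10 with Novoalign. No source used here names the peak caller or says how duplicates were handled, so tags may not be independent molecules and intervals of counts cover counting error only. Of 18285 peaks, 1 without a position (44 tags) was left out. Each listed miRNA has at least 50 tags in all.

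Tags were summed per gene over peaks annotated as 3'UTR, CDS, 5'UTR or other exon. Genes, miRNAs and seed families were tested with edgeR 4.0.16 (quasi-likelihood, filterByExpr, two-sided, all 13 libraries in 1 fit; TMM factors except for families, whose library size was the 3'UTR tags). The threshold was a Benjamini-Hochberg adjusted p under 0.05. Standard errors and 95% intervals come from the same fit. Scripts were tested on simulated data, and DESeq2 1.42.0 was the alternative. Seed matches were read from GENCODE M21 transcripts (GRCm38, the assembly of mm10) under 7253 of 7834 3'UTR peaks, and 1469 miRNAs matched a RefSeq entry. Region shares were compared with an exact permutation test.

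Replicate numbers mark the day of surgery, so a fit with the number as a block was run too. Deviations of same-numbered sham and contralateral libraries correlated across genes at 0.53, 0.14 and 0.24 (numbers 1, 2 and 5), and across miRNAs at 0.24, 0.03 and 0.05. Pairs of different numbers ran from -0.41 to 0.20 across genes and from -0.16 to 0.12 across miRNAs. Number 2 lay within that range for genes, and numbers 2 and 5 did for miRNAs. Named features are the smallest p in each direction (8 genes, 6 miRNAs, 3 families), the most tagged (8 genes, 10 miRNAs), the most tagged members of each list, and Slc1a2, Camk2a, Hspa1b and Hspa1a; some of these are not reported here. The comparison, members and lists were chosen with earlier results of these data known.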

Additional observations from a re-analysis of the deposited data

Results flagged for a closer look

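In 15 of 184 groups of 4 libraries examined, 1 library stood far from the other 3, its gap exceeding the 95% critical value of Dixon's test. Chance gives about 1 such group in 20 where groups are independent, and 8.15% were found here. Lists share members with each other and with the single features, so an excess over chance cannot be read from this share.

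Contralateral replicate 5 accounts for 6 of them. It had 108.7 tags per 10000 exonic tags on Sptbn1 (70.6 to 75.1 in the other 3) and 6.63% of 3'UTR tags at miR-5101 sites (5.16% to 5.35%). It had 1.04% at let-7d-5p sites (1.61% to 1.66%), 4.94% of exonic tags on astrocyte markers (3.58% to 3.67%) and 4.35% on glutamate transport and metabolism genes (2.83% to 3.06%), and 0.376% of miRNA tags on the miR-26 family (1.51% to 1.71%).

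The other contralateral cases are 487.3 tags per 10000 on Zcchc4 in replicate 1 (1.10 to 16.9 in the other 3), 15.2 on Meg3 in replicate 4 (114.0 to 134.0), 11.5 tags per 10000 miRNA tags on miR-6999-5p in replicate 1 (6.86 to 7.57) and 73.5 on miR-26b-5p in replicate 2 (9.57 to 12.96). Microglia markers had 0.0241% of exonic tags in replicate 1 and 0 in the others.

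Among sham libraries, replicate 2 had 161.9 tags per 10000 on miR-124-3p (99.2 to 108.2) and 3.13% of miRNA tags on neuron-enriched miRNAs (2.35% to 2.44%). Replicate 5 had 3.13% of 3'UTR tags at miR-26a-5p sites (2.63% to 2.66%). Inflammatory genes had 0.0152% of exonic tags in replicate 1 and 0 in the others.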

How the results depend on the processing

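No alternative called a gene, miRNA, seed family or region: all 58 recomputed counts were 0. For regions the test cannot reach the threshold with 3 libraries or pairs a side. With 4 libraries in at least 1 group its smallest raw permutation p is 0.0286, at which 1 region alone could not pass after adjustment. Gene tests at an unadjusted p under 0.05 numbered 9, but 222 of 3417 with no filter, 18 with the replicate block, 15 without both libraries of number 1, 5 with 3'UTR peaks only and 8 to 17 when 1 library was left out. For miRNAs the 43 became 20 with DESeq2, 0 of 99 when only miRNAs at 3 times the median were fitted, and 31 to 62 with 1 library left out. The median gene difference moved by -0.15 with no filter and -0.12 with all peaks of a gene. With the replicate block Psd3 had a log2 difference of 0.70 and let-7f-5p -0.89, both uncalled.

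Of 435 recomputed values, 10 changed sign: Map2 -0.0341 (3'UTR peaks only), miR-29b-3p sites -0.0620 (replicate block), Camk2a -0.0373 and let-7d-5p sites -0.23 (without both libraries of number 1). With all peak tags as library size miR-1192, miR-26a-5p and miR-30a-5p sites had 0.0504, 0.13 and 0.18. miR-29b-3p sites had -8.96e-05 with DESeq2, -0.00205 with TMM factors and -0.17 with matches to bases 2 to 8 only. Leaving out 1 library, these ranges crossed 0: Zcchc4 -4.99 to 0.61, Slc1a2 -0.0151 to 0.28, Malat1 -0.14 to 0.19, Camk2a -0.0501 to 0.16, miR-26a-5p -0.51 to 0.0544, miR-124-3p -0.49 to 0.0778, miR-466i-5p -0.41 to 0.19 and miR-26b-5p -0.35 to 1.21. So did the sites of miR-29b-3p (-0.0522 to 0.0425), miR-26a-5p (-0.11 to 0.0369), let-7d-5p (-0.15 to 0.15) and miR-30a-5p (-0.12 to 0.0604). The cause of these shifts was not tested. Contralateral replicates 4 and 5 had 5936 and 9105 exonic tags.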
